A study of Caenorhabditis elegans with 12 samples.

Results

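The aminoacyl-tRNA synthetase genes of N2 *C. elegans* were taken from the gene table by symbol: every gene named with a lower-case amino acid letter, the letters ars and the number 1, 2 or 3 was included. The rule found 32 genes among 46926 annotated features. They covered all 20 amino acids, and all 32 passed the filter on low counts that left 15266 genes for testing. The rule itself reads symbols only and no measured value. The rule misses synthetases that carry another symbol. Among these are *glp-4*, which encodes the cytosolic valyl enzyme, and Y105E8A.20, named *mars-2* in RefSeq, and both are given beside the members where they bear on them.

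Aminoacyl-tRNA synthetases join each amino acid to the tRNAs that carry its codons, and every protein made by the cytosolic or the mitochondrial ribosome depends on them. Most animals encode the cytosolic and the mitochondrial enzyme for an amino acid in separate nuclear genes, while a few genes, such as those for glycine and lysine, give rise to forms for both compartments. The cytosolic phenylalanyl enzyme is unusual in being a tetramer of α and β subunits, which *fars-1* and *fars-3* encode. By gene number, with hand-made exceptions, 12 members were placed in the cytosol with a mitochondrial gene for the same amino acid beside them, 8 were the only member for their amino acid, and 11 were mitochondrial. The first 2 sets together are called the cytosolic class of 20. The gene *vars-1* was left without a compartment, because its number would make it cytosolic while *glp-4* holds that role.

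Wild-type N2 worms, collected whole, were fed the *E. coli* Δ*lpp* mutant, which lacks the lipoprotein gene *lpp*, in 6 libraries, or its parent strain BW25113 in 6 libraries. Both groups were kept on high-fat NGM at 20 °C, and rRNA was removed from total RNA before sequencing. How old the worms were when RNA was taken is not given in the sources used here. Nothing says that the libraries came from separate cultures, so the p-values measure only the spread between these libraries, which may be technical. In whole worms, fewer cells of a type and less RNA per cell cannot be told apart.

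Library totals ran from 20254430 to 24442423 counts, and member counts ran from 156 to 12087 in a library. The scaling between libraries decided many directions. The trimmed mean of M-values (TMM) factors, which rescale library totals so that most genes do not differ, were 1.08 to 1.27 in Δ*lpp* and 0.794 to 0.988 in BW25113. Over all tested genes, the log2 fold change (Δ*lpp* over BW25113) had a median of 0.050 with TMM and 0.50 when library totals alone were used, a shift of 0.45. On log2(TPM + 1), where TPM is the deposited transcript level per length, it was 0.51. Values under more than 1 scaling are therefore given below, with medians of gene lists set against the all-gene median, and with ratios within a library, which do not depend on the factor applied to that library but can differ between counts and TPM. The whole family took 0.434 to 0.492% of all counts in Δ*lpp* and 0.419 to 0.470% in BW25113, ranges that overlapped.

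The synthetase genes as a family lay below most other genes in worms fed Δ*lpp*. With TMM scaling, 21 of the 32 members were lower in Δ*lpp* at an adjusted p under 0.05 (edgeR's quasi-likelihood test, Benjamini-Hochberg over all tested genes), 1 was higher and 10 did not pass. Over all tested genes, 32.3% were lower and 32.9% were higher by the same rule. The members' median log2 fold change was -0.39, which was -0.44 relative to the all-gene median, and 29 of 32 members lay below that median. Only *fars-3* also passed the limit of 1 on the log2 scale, and no member passed it in the higher direction. Of all tested genes, 15.6% were called lower and 12.1% higher with that limit. On TMM-scaled CPM, the lowest BW25113 library was above the highest Δ*lpp* library for 16 members, all lower. Of all tested genes, 41.5% did not overlap in either direction on that scale. Scaled by library totals alone, 5 members did not overlap. Of these, *fars-3* and *gars-1* were lower, and *nars-2*, *lars-1* and *rars-2* were higher. The share of all tested genes for that scaling is not given here.

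The direction in absolute terms did not survive a change of scaling. The position below other genes was kept. Dropping the TMM factors moves all genes by about the same amount, so library totals alone could not change that position. With library totals alone, 4 members were lower (*fars-3*, *gars-1*, *ears-1* and *yars-1*) and 11 were higher, beside 19.8% and 59.3% of all tested genes. The members' median was then 0.068, which was -0.43 relative to all genes, and 29 of 32 again lay below the all-gene median. With limma-trend on log2(TPM + 1), 1 member was lower and 16 were higher, beside 17.2% and 65.9% of all tested genes, and the median was 0.22, or -0.29 relative to all genes. Under all 3 scalings, 5 members had a negative fold change (*fars-3*, *gars-1*, *ears-1*, *yars-1* and *pars-2*) and 4 a positive one (*lars-1*, *pars-1*, *rars-2* and *ears-2*). The sign of the other 23 depended on the scaling.

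**Figure D1:**
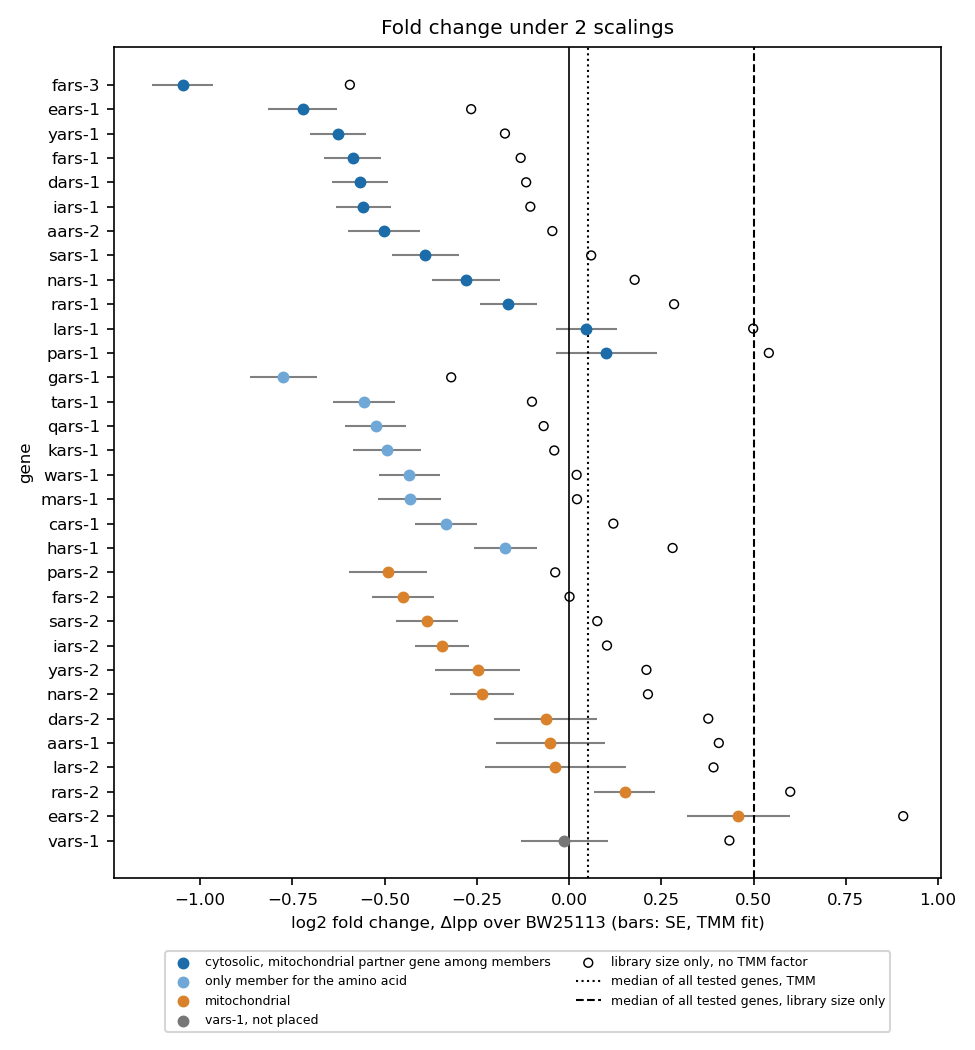
log2 fold change of each synthetase gene (horizontal axis, Δ*lpp* over BW25113), with filled points and SE bars for the TMM fit and open circles for library totals alone. Vertical lines mark 0 and the medians of all tested genes, 0.050 with TMM and 0.50 with library totals. Open circles lie to the right of the filled points by about the shift of 0.45, and under either scaling *fars-3* is the lowest and *ears-2* the highest.

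The β subunit gene of the cytosolic phenylalanyl enzyme, *fars-3* (WBGene00001498; chromosome II, 8464848 to 8467072, plus strand, WBcel235), differed most. Its level was 50.6, 57.4 and 63.9 CPM (counts relative to the TMM-scaled library size) in the lowest, median and highest Δ*lpp* libraries, and 107, 118.9 and 128 in those of BW25113. The groups were far apart, since the highest Δ*lpp* library held less than the lowest BW25113 library. The mean was 57.1 ± 5.59 in Δ*lpp* and 118 ± 7.77 in BW25113 (SD, n = 6 each), a log2 fold change of -1.05 (SE 0.0830, edgeR adjusted p = 3.00e-09), or a fall of 51.6%. It was also lower with library totals alone (log2 fold change -0.59, edgeR adjusted p = 3.11e-06) and on log2(TPM + 1) (-0.43, limma adjusted p = 0.000207). Its deposited TPM, 27.4 to 36.5 in Δ*lpp* and 38.3 to 46.1 in BW25113, did not overlap either. No other gene's exons overlap those of *fars-3* in the annotation. It sat close to the limit of 1: with upper quartile factors its log2 fold change was -0.96, and the call at that limit was lost.

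The α subunit gene *fars-1* differed less than the β subunit gene. Its TMM-scaled level was 112, 131 and 135 CPM in the lowest, median and highest Δ*lpp* libraries and 169, 192 and 203 CPM in those of BW25113. These ranges did not overlap, and the log2 fold change was -0.59 (SE 0.0773, edgeR adjusted p = 2.70e-06). It was -0.13 with library totals alone (edgeR adjusted p = 0.0632) and 0.0035 on log2(TPM + 1), so the sign was lost on TPM. The β to α ratio within a library does not depend on that library's scaling factor. The log2 ratio of *fars-3* to *fars-1* counts was -1.16 ± 0.0596 in Δ*lpp* and -0.69 ± 0.0404 in BW25113 (SD, n = 6 each). It ran from -1.23 to -1.08 in Δ*lpp* and from -0.75 to -0.65 in BW25113, so every Δ*lpp* library held less *fars-3* per *fars-1* than every BW25113 library. The difference was -0.46 from counts and -0.45 from TPM. The mitochondrial phenylalanyl enzyme is a monomer encoded by *fars-2*, whose TMM-scaled level was 43.8, 45.5 and 53.9 CPM in Δ*lpp* and 58.1, 63.8 and 73.6 CPM in BW25113 (lowest, median and highest). Those libraries did not overlap, and its log2 fold change was -0.45 (edgeR adjusted p = 0.000147) with TMM, but 0.0011 with library totals alone. Its TPM was much less steady than its counts, with a coefficient of variation within groups of 19.3% against 8.70% for TMM-scaled CPM.

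Next lowest was *gars-1* (WBGene00001744; chromosome III, 5159729 to 5163627, minus strand), the only glycyl synthetase gene among the members, which in other animals serves both compartments. Its lowest, median and highest levels were 129, 139 and 167 CPM in Δ*lpp* and 202, 256 and 263 CPM in BW25113. The groups did not overlap, although BW25113 replicate 1, at 202 CPM, stood below the other 5 libraries of its group. The log2 fold change was -0.77 (SE 0.0896, edgeR adjusted p = 5.04e-07) with TMM, -0.32 with library totals alone (edgeR adjusted p = 8.72e-05), and -0.16 on log2(TPM + 1) (limma adjusted p = 0.0550). The cytosolic glutamyl enzyme gene *ears-1* measured 127, 152 and 166 CPM in Δ*lpp* and 202, 253 and 276 CPM in BW25113, again without overlap. Its log2 fold change was -0.72 (SE 0.0943, edgeR adjusted p = 2.35e-06) with TMM and -0.27 with library totals alone (edgeR adjusted p = 0.00235). On log2(TPM + 1) it was -0.11 (limma adjusted p = 0.213). Scaled by library totals alone its groups overlapped, as did its TPM (36.4 to 48.8 in Δ*lpp*, 40.5 to 49.2 in BW25113). The cytosolic tyrosyl enzyme gene *yars-1* measured 54.8, 58.9 and 67.1 CPM in Δ*lpp* and 87.3, 92.6 and 96.9 CPM in BW25113. Its groups did not overlap, and the log2 fold change was -0.63 (SE 0.0757, edgeR adjusted p = 8.86e-07) with TMM and -0.17 with library totals alone (edgeR adjusted p = 0.0430). Its exons share 136 bases with *ekl-4* on the other strand, which are 5.80% of its exon length.

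At the other end, *ears-2* (chromosome IV, 388686 to 390468, minus strand), which encodes the mitochondrial glutamyl enzyme, was the only member that passed in the higher direction with TMM. It measured 11.2, 13.5 and 16.5 CPM in Δ*lpp* and 8.04, 9.60 and 13.1 CPM in BW25113, lowest, median and highest. The groups overlapped because BW25113 replicate 1 reached 13.1 CPM, above 3 Δ*lpp* libraries. The log2 fold change was 0.46 (SE 0.139, edgeR adjusted p = 0.00754), 0.91 with library totals alone, and 0.59 without BW25113 replicate 1. The glutamyl pair thus contained one of the lowest and the highest member: the log2 count ratio of *ears-1* to *ears-2* was 3.47 ± 0.309 in Δ*lpp* and 4.65 ± 0.376 in BW25113 (SD, n = 6 each), a difference of -1.18 with no overlap between the groups. The TPM ratio differed by the same -1.18. A stretch of 31 exon bases of *ears-2* lies under *ssna-1* on the other strand, and *ssna-1* itself had a log2 fold change of 0.15 (edgeR adjusted p = 0.372).

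The next 3 members from the top did not pass with TMM. The mitochondrial arginyl enzyme gene *rars-2* (chromosome II, 6125559 to 6127942, plus strand) measured 82.4, 90.9 and 106 CPM in Δ*lpp* and 75.4, 82.9 and 93.4 CPM in BW25113, which overlapped. Its log2 fold change was 0.15 (SE 0.0827, edgeR adjusted p = 0.116) with TMM, but 0.60 with library totals alone (edgeR adjusted p = 1.88e-07). The cytosolic prolyl enzyme gene *pars-1* (chromosome III, 7239027 to 7241277, plus strand) measured 46.8, 61.6 and 69.4 CPM in Δ*lpp* and 41.4, 54.9 and 73.5 CPM in BW25113. These levels overlapped widely, with a log2 fold change of 0.10 (edgeR adjusted p = 0.532) with TMM and 0.54 with library totals alone (edgeR adjusted p = 0.0114). The cytosolic leucyl enzyme gene *lars-1* (chromosome III, 4181549 to 4186801, minus strand) measured 169, 179 and 205 CPM in Δ*lpp* and 158, 171 and 209 CPM in BW25113. Its log2 fold change was 0.047 (edgeR adjusted p = 0.637) with TMM and 0.50 with library totals alone (edgeR adjusted p = 0.000233). With TMM and with library totals alone it lay at the all-gene median, and the change between these scalings moves both about alike. On log2(TPM + 1) these genes passed as higher: *rars-2* 0.83 (limma adjusted p = 2.93e-07), *pars-1* 0.70 (limma adjusted p = 0.00263) and *lars-1* 0.71 (limma adjusted p = 4.87e-05). There the all-gene median was 0.51, and 65.9% of all tested genes passed as higher. With TMM, the other cytosolic members except *pars-1* lay below the all-gene median.

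**Figure D2:**
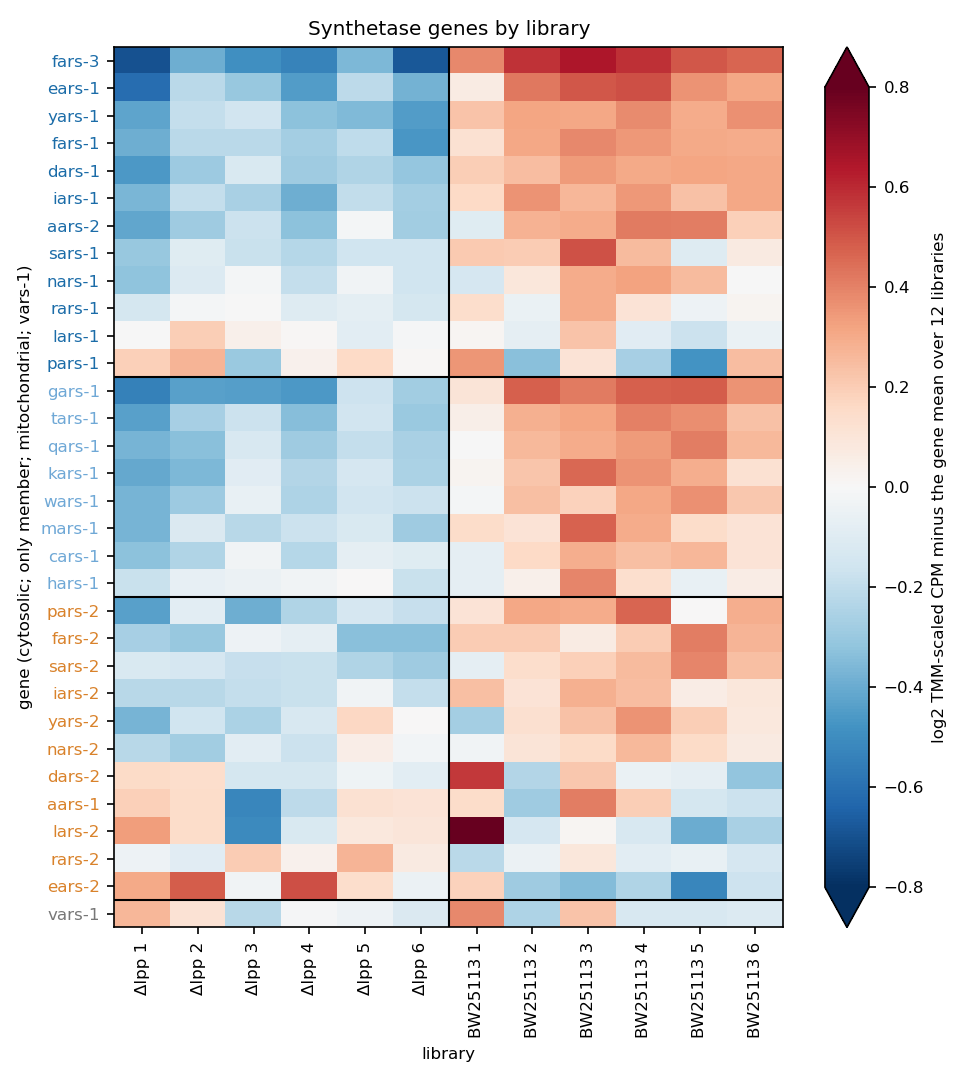
log2 TMM-scaled CPM of each synthetase gene (rows) in each library (columns), minus the gene's mean over the 12 libraries; red is above and blue below the mean. Horizontal lines separate the 12 cytosolic genes, the 8 that are the only member for their amino acid, the 11 mitochondrial genes and *vars-1*. The top rows of the cytosolic, only-member and mitochondrial blocks change from blue to red at the line between Δ*lpp* and BW25113. The *vars-1* row does not, and BW25113 replicate 1 stands out in *dars-2* and *lars-2*.

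In the isoleucyl pair, the cytosolic gene *iars-1* (chromosome IV, 10368601 to 10373136, plus strand) measured 176, 191 and 202 CPM in Δ*lpp* and 257, 281 and 295 CPM in BW25113. Its mitochondrial partner *iars-2* measured 127, 130 and 146 CPM in Δ*lpp* and 155, 168 and 181 CPM in BW25113. Neither overlapped, and the log2 fold changes were -0.56 for *iars-1* (edgeR adjusted p = 3.05e-06) and -0.34 for *iars-2* (edgeR adjusted p = 0.000509) with TMM. With library totals alone they were -0.11 and 0.10, and neither passed. The log2 count ratio of the pair was 0.52 ± 0.0848 in Δ*lpp* and 0.74 ± 0.134 in BW25113 (SD, n = 6 each), with overlap.

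The valyl genes differed from each other. The level of *vars-1* was 29.7, 34.0 and 41.6 CPM in Δ*lpp* and 29.1, 31.8 and 45.2 CPM in BW25113, almost the same range, with a log2 fold change of -0.013 (edgeR adjusted p = 0.932) with TMM and 0.43 with library totals alone (edgeR adjusted p = 0.0190). The cytosolic enzyme's gene *glp-4*, named for the germ line loss of its mutants, measured 209 ± 15.3 CPM in Δ*lpp* and 335 ± 17.9 CPM in BW25113 (SD, n = 6 each), without overlap. Its log2 fold change of -0.68 (edgeR adjusted p = 4.14e-07) with TMM lay between those of *ears-1* and *yars-1*, and it was -0.23 with library totals alone (edgeR adjusted p = 0.00294). The log2 count ratio of *glp-4* to *vars-1* differed by -0.68 between the groups, which overlapped. Y105E8A.20 had a log2 fold change of -0.35 with TMM (edgeR adjusted p = 0.00714) and 0.10 with library totals alone (edgeR adjusted p = 0.439).

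Among the remaining cytosolic members with a mitochondrial partner, *dars-1* (-0.57), *aars-2* (-0.50), *sars-1* (-0.39) and *nars-1* (-0.28) passed as lower on the log2 scale with TMM, and *rars-1* (-0.16) did not. Of the 8 genes that were the only member for their amino acid, 7 passed as lower with TMM, beside 32.3% of all tested genes. Their log2 fold changes ran from -0.77 for *gars-1* to -0.33 for *cars-1*. Only *hars-1*, the histidyl gene, did not pass (-0.17, edgeR adjusted p = 0.0853). With library totals alone, *hars-1* and *cars-1* passed as higher (0.28 and 0.12), beside 59.3% of all tested genes. Then *gars-1* alone passed as lower, beside 19.8% of all tested genes. The remaining mitochondrial members were *pars-2* (-0.49), *sars-2* (-0.39) and *nars-2* (-0.24), which passed as lower with TMM, and *yars-2* (-0.25), *dars-2* (-0.064), *aars-1* (-0.051) and *lars-2* (-0.037), which did not. Several of these results rested on 1 library. Without BW25113 replicate 1 the values were 0.10 for *dars-2*, 0.0078 for *aars-1*, 0.24 for *lars-2* and 0.11 for *vars-1*, all with the sign reversed, and *yars-2* and *hars-1* passed as lower (edgeR adjusted p = 0.0132 and 0.0422). Without Δ*lpp* replicate 3, *aars-1*, *lars-2* and *vars-1* were also above 0 (0.036, 0.052 and 0.031). The sign of *aars-1* reversed without BW25113 replicate 3 or 4 (0.027 and 0.015), and that of *vars-1* without Δ*lpp* replicate 6 or BW25113 replicate 3 (0.013 and 0.027). The call of *nars-2* was lost without Δ*lpp* replicate 1, 2 or 4 or BW25113 replicate 4 or 5 (edgeR adjusted p from 0.0528 to 0.0779). *yars-2* also passed as lower without Δ*lpp* replicate 5, and *rars-1* did so without BW25113 replicate 2 (edgeR adjusted p = 0.0254 and 0.0494).

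The comparison of compartments asked whether cytosolic and mitochondrial enzymes differed alike. In the cytosolic class of 20, 16 genes were lower, none was higher and 4 did not pass with TMM; its median was -0.50 on the log2 scale, or -0.55 relative to all genes. In the mitochondrial class of 11, 5 were lower, 1 was higher and 5 did not pass, with a median of -0.24, or -0.29 relative to all genes. Beside these stand the 32.3% of all tested genes that were lower and the 32.9% that were higher. On TMM-scaled CPM, the groups did not overlap for 12 of the 20 cytosolic and 4 of the 11 mitochondrial genes, against 41.5% of all tested genes. The mitochondrial count was thus no higher than the share over all genes. With library totals alone, the medians were -0.043 for the cytosolic and 0.21 for the mitochondrial class, and with log2(TPM + 1) they were 0.082 and 0.34. The mitochondrial median thus stood above the cytosolic one under each of these scalings, although the sign of both changed. A change of library factor moves both medians by about the same amount, so TMM and library totals had to agree here. The classes were not tested against each other gene by gene, because genes are not replicates.

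Within a library, the cytosolic class summed to fewer TPM per mitochondrial TPM in Δ*lpp*. The log2 ratio of the sums was 2.91 ± 0.0525 in Δ*lpp* and 3.11 ± 0.0961 in BW25113 (SD, n = 6 each), a difference of -0.20. It ran from 2.86 to 2.996 in Δ*lpp* and from 2.987 to 3.23 in BW25113, so the groups overlapped by a narrow margin. From summed counts the difference was -0.25, again with a narrow overlap (2.88 to 3.055 against 3.052 to 3.28). The sums themselves depended on the scale. The mitochondrial sum was 202 ± 16.3 TPM in Δ*lpp* and 162 ± 9.63 TPM in BW25113, higher in Δ*lpp* without overlap, but 431 ± 16.2 against 500 ± 17.5 TMM-scaled CPM, lower without overlap (SD, n = 6 each). The cytosolic sum was 1513 ± 87.9 against 1393 ± 73.8 TPM, with overlap, and 3390 ± 195 against 4684 ± 335 TMM-scaled CPM, lower without overlap (SD, n = 6 each).

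Pair by pair, the cytosolic to mitochondrial count ratio was lower in Δ*lpp* in 9 of 12 pairs and higher in 3, where the 11 amino acids with both genes give 12 pairs because *fars-2* was set against each subunit gene. Only 2 of the lower ratios did not overlap between the groups, *ears-1* to *ears-2* (-1.18) and *fars-3* to *fars-2* (-0.60). From TPM, 10 were lower and 2 higher, and the ratios without overlap were *ears-1* to *ears-2* (-1.18) and *rars-1* to *rars-2* (-0.44). The *fars-3* to *fars-2* ratio overlapped on TPM (-0.58), and the *rars-1* to *rars-2* ratio overlapped on counts (-0.31). The prolyl pair went the other way, with *pars-1* to *pars-2* higher by 0.61 in counts and by 0.94 in TPM, each with overlap. The exons of *pars-2* share 153 bases, or 9.80% of their length, with T27F6.6 on the same strand, and reads from those bases cannot be assigned with certainty.

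**Figure D3:**
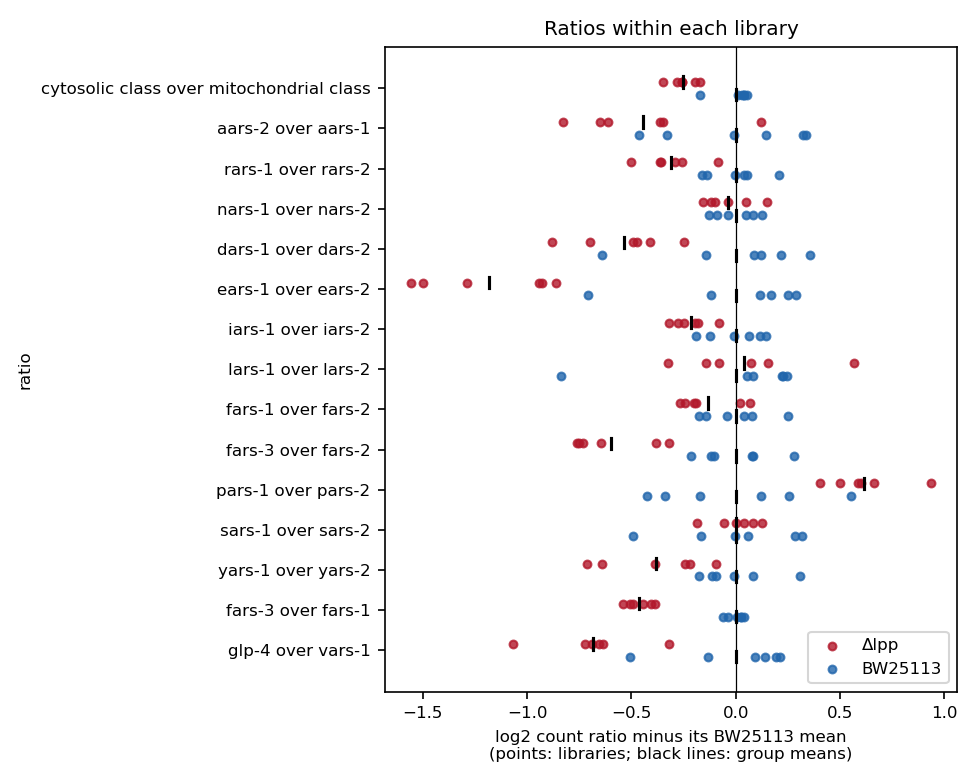
log2 ratio of counts within each library (horizontal axis, minus the BW25113 mean of that ratio) for the summed classes, the 12 cytosolic to mitochondrial pairs, the subunit pair *fars-3* to *fars-1*, and *glp-4* to *vars-1*. Points are libraries and black lines group means. The Δ*lpp* points for *ears-1* to *ears-2* and *fars-3* to *fars-1* lie wholly to the left of the BW25113 points, and those for *pars-1* to *pars-2* lie mostly to the right.

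Per transcript length, the cytosolic class was the more abundant in these worms. Mean TPM over the 12 libraries ran from 25.7 for *yars-1* to 194 for the lysyl gene *kars-1* in the cytosolic class, and from 3.31 for the mitochondrial alanyl gene *aars-1* to 40.4 for *fars-2* in the mitochondrial class. Highest and lowest thus differed 58.6-fold. After *kars-1* came the threonyl gene *tars-1* (123 TPM), the aspartyl gene *dars-1* (118.6 TPM) and the glutaminyl gene *qars-1* (103 TPM), and *tars-1* and *dars-1* overlapped in both groups. The lowest 5 were *ears-2*, *dars-2*, *vars-1*, *lars-2* and *aars-1*, all under 7 TPM. Their TMM-scaled CPM had a coefficient of variation within groups from 15.1 to 28.3%, against 9.71% for *kars-1*.

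**Figure D4:**
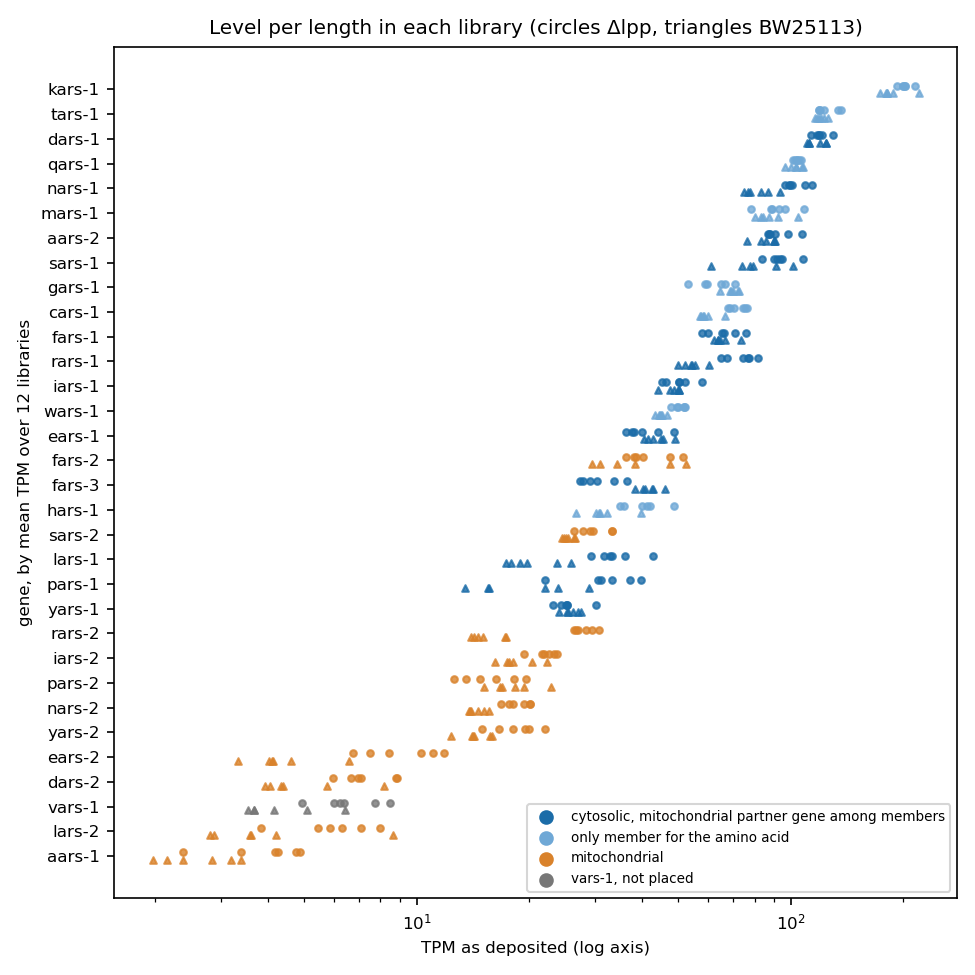
Deposited TPM of each synthetase gene in each library (horizontal log axis), ordered by the mean over 12 libraries, with circles for Δ*lpp* and triangles for BW25113 and colours for the classes. The *kars-1* points lie near 194 TPM and the *aars-1* points near 3.31 TPM. The mitochondrial genes other than *fars-2* and *sars-2* stand below every gene of the cytosolic class in the order.

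Other genes of translation lay on the same side of the all-gene median as the synthetases. Beside the counts below, 32.3% of all tested genes were lower and 32.9% higher with TMM. With library totals alone, 19.8% were lower and 59.3% higher. Of the cytosolic ribosomal protein genes, 77 of 78 tested were lower and 1 higher with TMM, and the median was -0.68 on the log2 scale; with library totals alone 60 were lower and 1 higher (median -0.23). The lowest of them, *rpl-42*, was at 0.0445 CPM in Δ*lpp* and 2.30 CPM in BW25113 (-5.51, edgeR adjusted p = 9.36e-11), a very low level for the list. All 8 cytosolic elongation and release factor genes were lower with TMM (median -0.57), and 4 with library totals alone (median -0.12). The largest difference there was that of *eef-1A.2*, an elongation factor that delivers charged tRNAs to the ribosome (-0.70, edgeR adjusted p = 4.30e-05). Initiation factor genes were lower for 24 of 33 tested and higher for none with TMM (median -0.47), and with library totals alone 11 were lower and 10 higher (median -0.021). Of these, *inf-1*, which encodes the helicase eIF4A, differed most (-1.19, edgeR adjusted p = 1.46e-06).

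In mitochondria, 48 of 66 ribosomal protein genes were lower and 1 higher with TMM (median -0.46), beside 32.3% and 32.9% of all tested genes. With library totals alone 13 were lower and 12 higher (median -0.014), beside 19.8% and 59.3% of all tested genes. The largest difference was that of *mrpl-17* (-1.84, edgeR adjusted p = 0.0474), whose SE of 0.742 was wide. Of 8 listed mitochondrial translation factors, 4 were tested under the listed symbols and all were lower with TMM (median -0.91), 3 of them also with library totals alone (median -0.45). The elongation factor gene *gfm-1* was the lowest (-1.03, edgeR adjusted p = 2.35e-09). The mitochondrial ribosome and factor genes thus had lower medians than the mitochondrial synthetase genes. Either scaling had to give this order, because the change between them moves all lists about alike. The difference was not tested.

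For the next 2 lists too, 32.3% of all tested genes were lower and 32.9% higher with TMM. With library totals alone these shares were 19.8% and 59.3%. Ribosome biogenesis genes were lower for 12 of 18 tested and higher for none with TMM (median -0.36). With library totals alone 6 were lower and 4 higher (median 0.095). Among them *nol-56*, a snoRNP core protein gene, differed most (-0.92, edgeR adjusted p = 2.32e-07). Uncharged tRNAs are sensed by the kinase GCN-2, and genes of amino acid supply and that response were examined for this reason. Of 20 listed, 14 were tested; 9 were lower and 2 higher with TMM (median -0.57), and 5 were lower and 5 higher with library totals alone (median -0.12). The largest difference was that of *cbs-2*, a cystathionine β-synthase gene, at 0.335 CPM in Δ*lpp* and 9.76 CPM in BW25113 (-4.85, edgeR adjusted p = 8.83e-13).

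**Figure D5:**
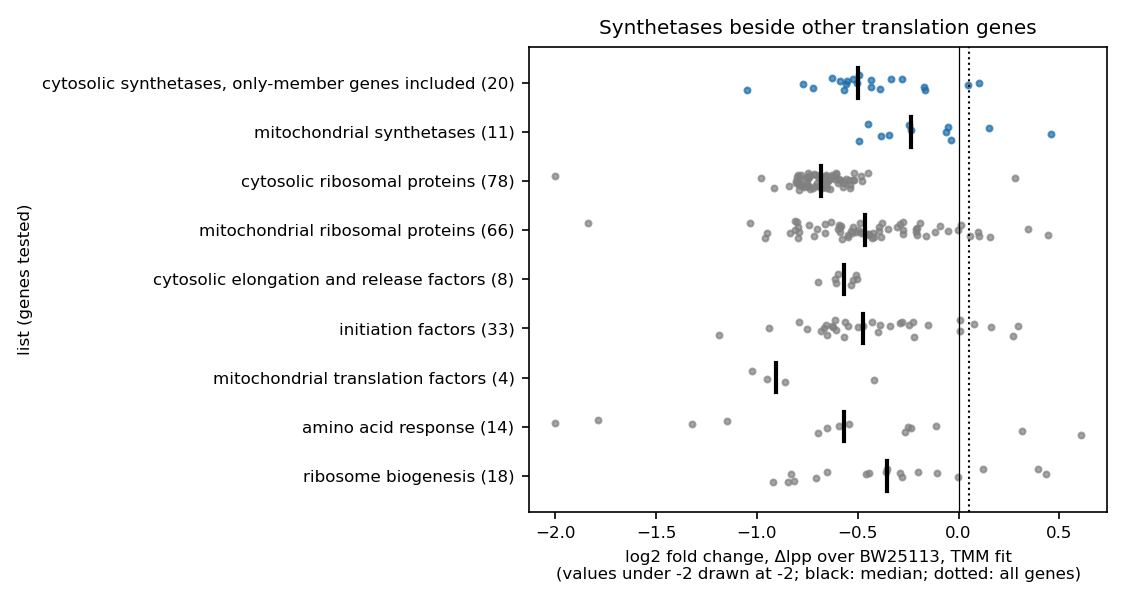
log2 fold change (Δ*lpp* over BW25113, TMM fit) of each tested gene in the synthetase classes and the other lists of translation and amino acid genes. Points are genes, black bars medians and the dotted line the median of all tested genes, 0.050. Values under -2 are drawn at -2, which places *rpl-42* (-5.51) and *cbs-2* (-4.85) there. Medians run from -0.91 for mitochondrial translation factors to -0.24 for mitochondrial synthetases. Most cytosolic ribosomal proteins lie near their median of -0.68, apart from *rpl-42* and *rpl-24.2* (0.28).

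Markers of several cell types differed between the groups too. Summed TPM of 15 sperm markers was 10.2 to 12.5 in Δ*lpp* and 327 to 464 in BW25113. That of 12 oocyte and eggshell markers was 4380 to 5700 against 1475 to 2631. With TMM, however, 6 of these 12 markers were higher, 0 were lower and 6 did not pass, with a median log2 fold change of 0.34. Neuron markers (6) summed to 431 to 501 TPM against 214 to 238. Germ line markers (14 genes) summed to 1069 to 1441 TPM against 768 to 1119, but with TMM 3 were lower, 1 was higher and 10 did not pass, with a median log2 fold change of -0.079. Yolk genes (6) summed to 7876 to 13482 TPM against 4314 to 8498, but their members went both ways, with 3 lower and 2 higher with TMM, 3 lower and 3 higher with library totals alone, and a log2 fold change of -3.14 for *vit-1* with TMM. Body muscle markers (6) ran from 860 to 1067 against 1512 to 1957, intestine markers (5 of the 6 listed) from 493 to 578 against 838 to 989, and hypodermis markers (6) from 117 to 140 against 177 to 330. Of the 5 intestine markers, 4 were lower and 1 did not pass with TMM, while with library totals alone 3 were lower, 1 was higher and 1 did not pass. The hypodermis markers went both ways, with 5 lower and 1 higher with TMM. With library totals alone 2 of them were lower, 1 was higher and 3 did not pass. The largest difference among them was that of *bli-1*, at 1.31 TMM-scaled CPM in Δ*lpp* and 168 in BW25113. No marker was at 0 in every library. Counts on rRNA genes were 0.408 to 0.567% of the total in Δ*lpp* and 1.24 to 2.69% in BW25113. The part of these differences in the synthetase values was not tested.

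Some members share sequence with a neighbouring gene. The exons of 12 members overlap a gene on the other strand and those of 3 (*pars-2*, *mars-1* and *iars-2*) a gene on the same strand, and the strand setting of the counting was not given. The shared stretches held 4 to 153 bases, or 0.158 to 9.80% of the member's exons. The partner with the most counts relative to its member was *clec-87*, opposite *iars-2*, with a mean of 18401 counts against 3307 and 138 shared exon bases, or 3.84% of the exons of *iars-2*. It had a log2 fold change of 0.44, opposite in sign to that of *iars-2* with TMM.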

How the data were processed

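Per the labels and the study's methods, the authors used Seqtk to filter reads, Hisat2 (version not given in the sources used here) to align them to WBcel235, and Stringtie to count them per gene. The deposited table holds an estimated count and a TPM per feature and library; the authors computed TPM with RNAnorm. Of the count values, 8.97% were not whole and were rounded. Genes passing filterByExpr (minimum count 10, minimum total 15) were tested with edgeR 4.0.16 (TMM, robust quasi-likelihood) in R 4.3.3, adjusted over 15266 genes; limma 3.58.1 (pseudocounts 1 and 0.1) and DESeq2 1.42.0 were alternatives, beside other scalings and filters, a replicate block and leaving out each library. On data simulated for this comparison with 200 changed genes among 15266, edgeR recovered 200 with 1 false call. Of those 200 genes, limma found 180. In the real data far larger shares passed with TMM, 32.3% of tested genes as lower and 32.9% as higher. The simulation therefore cannot speak for calls made under such broad differences. Libraries were checked for duplicates, and the lowest chi-square over degrees of freedom between libraries of a group was 4.40. The authors' group means were not used.

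Members and lists were chosen with earlier results of these data known. Any member could be named; per-library values were given for the 4 highest and 4 lowest members and the iars, fars and vars genes, and of each other list the largest passing difference. Compartments followed gene numbers by hand, and *vars-1*, cytosolic by that rule, was left unplaced. No sequences were analysed here.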

Additional observations from a re-analysis of the deposited data

Results flagged for a closer look

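In each group of 6 libraries, the highest or lowest value of a gene was compared with the gap to its nearest neighbour by Dixon's ratio (critical value 0.625) on TMM-scaled CPM. Of 66 gene and group combinations examined, 4 stood out, and chance alone would mark about 1 in 20. For *gars-1*, BW25113 replicate 1 was at 202 CPM while the others ran from 241 to 263 CPM. For *fars-1*, BW25113 replicate 1 was at 169 CPM and the others at 191 to 203 CPM. The same library was high for *lars-2*, at 26.5 CPM against 10.98 to 14.7 CPM in the others. For *iars-2*, Δ*lpp* replicate 5 was at 146 CPM, above the others at 127 to 131 CPM. BW25113 replicate 1 was the highest library of its group for 5 members, *dars-2*, *lars-2*, *vars-1*, *pars-1* and *ears-2*, while BW25113 replicate 3 was the highest for 13. Replicate 1 had the highest TMM factor of its group, 0.988.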

How the results depend on the processing

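Scaling decided most of what changed. The 1 member called lower at the fold limit became 0 with upper quartile factors, library totals alone, log2(TPM + 1) and log2(TPM + 0.1), and the 0 called higher became 1 with log2(TPM + 0.1). Lower members by adjusted p numbered 4, 1 and 1 with library totals, log2(TPM + 1) and log2(TPM + 0.1), against 21. Higher members, 1 in the fit with TMM, numbered 2 with upper quartile factors, 2 with a filter of 10 counts in every library, 11 with library totals, 16 with log2(TPM + 1) and 17 with log2(TPM + 0.1). Of all tested genes, 32.3% were lower with TMM, 19.8% with library totals and 17.2% with log2(TPM + 1). In the same order, 32.9%, 59.3% and 65.9% were higher. Shares for the other settings are not given here, so those counts cannot be set against them. The cytosolic median was -0.40 with upper quartile factors, -0.043 with library totals, 0.082 with log2(TPM + 1) and 0.082 with log2(TPM + 0.1). The mitochondrial median was -0.14, 0.21, 0.34 and 0.36 in the same order, and -0.15 with *vars-1* counted in the class, a choice made after seeing the data. The difference between the groups in the cytosolic to mitochondrial log2 ratio, -0.20 from summed TPM, was -0.29 from the mean log2(TPM) over members. DESeq2, RLE factors and the absence of a filter on counts reversed no member, but DESeq2 and RLE factors brought *yars-2*, *hars-1* and *rars-1* past the threshold as lower. The cause of these changes, beyond the scaling itself, was not tested.

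Log2 fold changes turned positive with library totals alone for *fars-2* 0.0011, *wars-1* 0.020, *mars-1* 0.021, *sars-1* 0.060, *sars-2* 0.076, *iars-2* 0.10, *cars-1* 0.12, *nars-1* 0.18, *yars-2* 0.21, *nars-2* 0.21, *hars-1* 0.28, *rars-1* 0.28, *dars-2* 0.38, *aars-1* 0.41, *lars-2* 0.39, *vars-1* 0.43. With log2(TPM + 1) they did so for *fars-1* 0.0035, *dars-1* 0.034, *iars-1* 0.051, *tars-1* 0.054, *qars-1* 0.012, *aars-2* 0.11, *kars-1* 0.11, *fars-2* 0.13, *wars-1* 0.17, *mars-1* 0.053, *sars-1* 0.22, *sars-2* 0.22, *iars-2* 0.23, *cars-1* 0.27, *nars-1* 0.33, *yars-2* 0.34, *nars-2* 0.34, *hars-1* 0.34, *rars-1* 0.43, *dars-2* 0.48, *aars-1* 0.44, *lars-2* 0.48, *vars-1* 0.50. With log2(TPM + 0.1) they did so for *fars-1* 0.0035, *dars-1* 0.035, *iars-1* 0.052, *tars-1* 0.054, *qars-1* 0.012, *aars-2* 0.11, *kars-1* 0.11, *fars-2* 0.14, *wars-1* 0.17, *mars-1* 0.054, *sars-1* 0.22, *sars-2* 0.23, *iars-2* 0.24, *cars-1* 0.27, *nars-1* 0.33, *yars-2* 0.35, *nars-2* 0.36, *hars-1* 0.35, *rars-1* 0.44, *dars-2* 0.56, *aars-1* 0.56, *lars-2* 0.58, *vars-1* 0.59. With upper quartile factors the reversed members were *dars-2* 0.029, *aars-1* 0.046, *lars-2* 0.050, *vars-1* 0.081, and with 10 counts in every library *vars-1* 0.025. Leaving out 1 library at a time reversed 4 members, none of which passed with all libraries: *dars-2* ranged from -0.13 to 0.10, *aars-1* from -0.12 to 0.036, *lars-2* from -0.11 to 0.24 and *vars-1* from -0.068 to 0.11. The values without BW25113 replicate 1 were the highest for *dars-2*, *lars-2* and *vars-1*.

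Replicate numbers gave little sign of pairing the libraries, and the labels do not say whether they mark pairs. Correlations of same-numbered libraries' deviations from their group means ranged from -0.17 to 0.33, and only replicate 1 correlated best with its own number. With a replicate block, 21 members were lower, 1 was higher and 1 passed the fold limit, the same counts as without it, and *lars-2* moved to 0.0062. Member counts of 156 or more in every library were far above the minimum count of 10.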
